A study of Mus musculus with 36 samples.

Results

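The transforming growth factor β (TGF-β) and bone morphogenetic protein (BMP) genes described here are 10 of the 18193 genes that the arrays name: the TGF-β ligands Tgfb1, Tgfb2 and Tgfb3, the BMP ligands Bmp2, Bmp4 and Bmp7, the activin subunit Inhba, the extracellular antagonists Fst and Grem1, and the latency protein Ltbp1. They were taken by name, from the probe sets that the platform annotation gives to one of these symbols alone, and the probe set with the highest mean over the 36 arrays stood for each gene. All 10 were among the 14495 genes tested, which had to exceed the median of all values (5.66 on the log2 scale) in at least 2 arrays. Grem1 passed that filter only through the mTEChi arrays, where it is high, so a difference for mTEChi was built into its selection.

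The series profiled RNA from 6 cell populations of the thymus of male wild-type C57BL/6J mice on Affymetrix arrays. Of the epithelium, it covered the cortical cells (cTEC) and a pair of medullary subsets, mTEClo with low and mTEChi with high surface CD80 and MHC class II. The others were fibroblasts and the dendritic cells (DC) negative or positive for Sirpa, written Sirpa− DC and Sirpa+ DC, all sorted by flow cytometry from digested thymus. Animals were 1, 3 or 6 months old, and every combination of population and age had 2 arrays, so that 18 groups result. No treatment or engineered allele was involved, and the fibroblast sort is described no further than by that name. The labels give 1 mouse per sample, whereas the design text gives 2 mice per age. Samples of different populations at an age may therefore come from the same animals, while the p-values treat them as independent. In that case the spread between animals rests on 2 mice per age.

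TGF-β ligands are secreted in a latent form, tied to the matrix by latent TGF-β binding proteins such as Ltbp1 and released by integrins. TGF-βs and activins signal through paired type I and type II receptors to Smad2 and Smad3, and BMPs to Smad1, Smad5 and Smad9, with the Id genes as classic BMP targets. Follistatin (Fst) binds activins and some BMPs, and gremlin 1 (Grem1) binds BMP2, BMP4 and BMP7, so that each antagonist limits ligands made nearby. In the thymus, mesenchymal BMP4 is known to sustain epithelial Foxn1, and TGF-β signalling in epithelium is known to restrain the medullary compartment.

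The markers of each labelled population were highest, as a mean over the list, in the population that carries the label, and each of the 36 arrays correlated best with another array of its own population. Array medians lay between 5.61 and 5.75, replicate arrays correlated at 0.949 to 0.994 over the genes tested, and their number limits the precision. The fibroblast arrays also carried thymocyte markers (a list mean of 8.28 to 10.74, against 5.23 to 8.18 in the other 5 populations) and mural-cell markers (8.83 to 10.65, against 5.74 to 8.18). The library labelled fibroblast, 6 months, replicate 2 stood apart: its fibroblast marker mean was 9.26, against 11.45 to 12.91 in the other 5 fibroblast arrays, and its thymocyte marker mean was the highest of all arrays at 10.74. All 7 fibroblast markers and all 9 thymocyte markers measured were above the median of all values in each of the 6 fibroblast arrays. Fibroblast results that rest on the library that stands apart are given with and without it. In sorted bulk samples, fewer cells of a type and less RNA per cell cannot be told apart.

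Promoter sequence was at hand in RefSeq (GRCm38.p6) for 6 of the 10 genes, Tgfb1, Tgfb2, Bmp4, Inhba, Grem1 and Ltbp1. The sequences of 4 of them are shown because these genes peaked in different populations: Tgfb2 in mTEChi and fibroblasts, Bmp4 and Ltbp1 in fibroblasts, and Grem1 in mTEChi. Each is the 250 bases before the annotated start, written 5′ to 3′ along the gene's strand. They lie at chr1:186705990-186706239 (minus strand) for Tgfb2, chr14:46390670-46390919 (minus strand) for Bmp4, chr17:75005279-75005528 (plus strand, the first of both Ltbp1 starts in the table) for Ltbp1 and chr2:113758649-113758898 (minus strand) for Grem1. Capitals mark matches on either strand to the TATA box TATAAA, the SMAD-binding element CAGACA, the E-box CACGTG and the cAMP response element TGACGTCA.
Tgfb2: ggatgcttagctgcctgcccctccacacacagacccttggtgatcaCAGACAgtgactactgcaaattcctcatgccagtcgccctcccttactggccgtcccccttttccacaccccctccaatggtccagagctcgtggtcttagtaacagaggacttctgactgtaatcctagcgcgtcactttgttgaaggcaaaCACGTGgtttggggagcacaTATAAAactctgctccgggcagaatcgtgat
Bmp4: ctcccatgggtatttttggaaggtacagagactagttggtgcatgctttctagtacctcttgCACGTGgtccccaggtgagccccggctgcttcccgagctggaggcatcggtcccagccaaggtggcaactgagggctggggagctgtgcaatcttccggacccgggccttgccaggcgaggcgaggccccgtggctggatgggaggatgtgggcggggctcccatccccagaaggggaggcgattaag
Ltbp1: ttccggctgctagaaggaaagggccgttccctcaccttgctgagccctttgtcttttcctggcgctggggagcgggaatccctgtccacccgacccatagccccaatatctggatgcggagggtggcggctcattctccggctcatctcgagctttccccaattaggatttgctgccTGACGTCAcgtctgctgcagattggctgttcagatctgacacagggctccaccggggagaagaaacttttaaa
Grem1: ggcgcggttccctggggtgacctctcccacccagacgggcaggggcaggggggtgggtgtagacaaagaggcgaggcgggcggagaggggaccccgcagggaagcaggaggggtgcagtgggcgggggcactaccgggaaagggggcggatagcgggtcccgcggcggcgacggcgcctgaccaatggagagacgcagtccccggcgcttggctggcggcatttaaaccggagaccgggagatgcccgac

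The Tgfb2 promoter held a TATA box match 31 to 26 bases before the start, an E-box 51 to 46 bases before it, and a SMAD-binding element 204 to 199 bases before it. Among the 32851 promoter windows in the table, 12.4% held the TATA match, 6.02% the E-box and 17.1% the SMAD-binding element. Bmp4 held an E-box match 188 to 183 bases before its start, and Ltbp1 a cAMP response element match 73 to 66 bases before its start, which 1.55% of windows share. Grem1 held none of these letters in this window, which was 72.0% G and C against a median of 52.4% over all windows. The windows not printed held a TATA match in Inhba, 2 SMAD-binding element matches at the second Ltbp1 start, and none in Tgfb1. No match overlapped another.

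Across the populations, the 10 genes fell into a dendritic pattern (Tgfb1), a pattern led by mTEClo and cTEC (Tgfb3, Bmp7 and Fst), an mTEChi pattern (Grem1) and a fibroblast pattern (Bmp4, Inhba and Ltbp1). Tgfb2 and Bmp2 were highest on average in mTEChi and next highest in fibroblasts, where Bmp2 was not called with all arrays. In limma, the mean of one population was set against that of the other 5, and a call needed a difference of at least 2-fold and an adjusted p under 0.05. Of 60 such tests on the 10 genes, 30 were called (16 higher, 14 lower), or 4 to 7 genes in each population, against 17.4% of the tests over all genes. The genes were chosen with earlier results of these data known, and Grem1 passed the filter only through mTEChi. The excess over all genes was therefore partly fixed in advance. In single populations, 16.1% of all genes were called for cTEC, 14.8% for mTEClo, 19.2% for mTEChi, 19.2% for Sirpa− DC, 16.9% for Sirpa+ DC and 18.4% for fibroblasts.

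**Figure D1:**
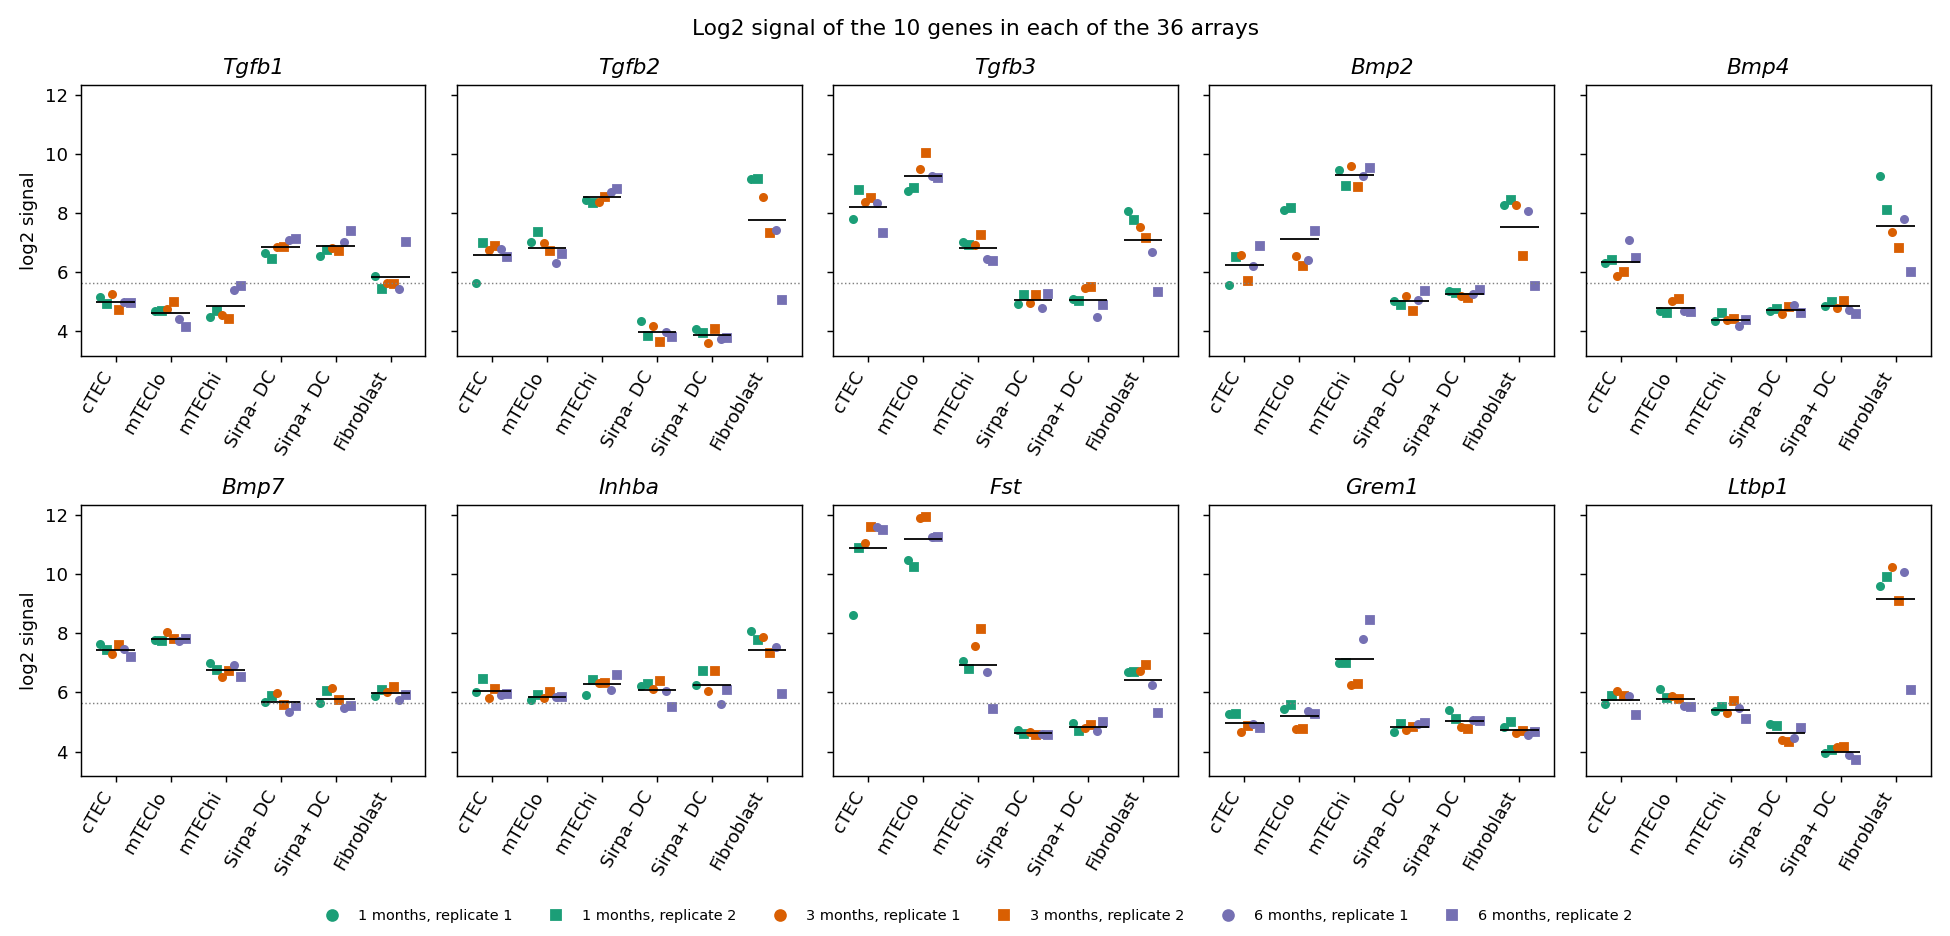
Log2 signal (vertical axis) of each gene in each of the 36 arrays, by population (horizontal axis); colours give the age, circles replicate 1 and squares replicate 2, black bars the mean of 6 arrays, and the dotted line the median of all values (5.66). Fst stood at 8.63 to 11.93 in cTEC and mTEClo, Grem1 passed the dotted line only in mTEChi, and the lone fibroblast square near 6 in the Ltbp1 panel is the library that stands apart. Signals of different probe sets are not comparable in level.

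Tgfb1, the TGF-β isoform typical of leukocytes, was highest in the dendritic cells. Its log2 signal in Sirpa+ DC ran from 6.56 over a median of 6.79 to 7.40, and in Sirpa− DC from 6.46 over 6.86 to 7.12. The 18 epithelial arrays lay between 4.16 and 5.53, below every dendritic array, and 5 of the 6 fibroblast arrays lay between 5.45 and 5.87. The library that stands apart was at 7.04, within the dendritic range. The difference from the mean of the other 5 populations was +1.45 ± 0.13 (SE) in Sirpa+ DC (2.74-fold, adjusted p = 5.9e-10) and +1.40 ± 0.13 in Sirpa− DC (2.64-fold, adjusted p = 9.9e-10). Macrophage markers were also highest on average in the dendritic cells. Their list mean was 9.87 to 10.96 in Sirpa+ DC, with 7 of 7 above the median of all values in each array. It was 6.59 to 8.65 in Sirpa− DC, against 5.11 to 6.99 in the other 4 populations. Over the 6 arrays the macrophage mean was 10.45 in Sirpa+ DC and 7.88 in Sirpa− DC, where Tgfb1 averaged 6.89 and 6.84. The part of these markers in the Tgfb1 difference was not tested. In mTEClo Tgfb1 was lower, by −1.27 ± 0.13 (adjusted p = 8.16e-09). A second Tgfb1 probe set kept the direction in all 3 but not the 2-fold size, at +0.41, +0.57 and −0.31. For the mean of both probe sets the 3 differences were short of 2-fold, at +0.93, +0.99 and −0.79.

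Tgfb2, the isoform that epithelia and mesenchyme make in many organs, was near the bottom of its range in both dendritic populations. All 12 dendritic arrays lay between 3.60 and 4.36. The mTEChi arrays lay close together, from 8.37 over a median of 8.49 to 8.81, while the fibroblast arrays spread from 5.05 over 7.99 to 9.16. The cTEC arrays ran from 5.65 to 7.01 and the mTEClo arrays from 6.31 to 7.36, above every dendritic array. Relative to the other 5 populations, Tgfb2 was 6.62-fold higher in mTEChi (+2.73 ± 0.21, adjusted p = 2.42e-11) and 3.52-fold higher in fibroblasts (+1.81 ± 0.21, adjusted p = 4.67e-08). Without the fibroblast library that stands apart the latter was +2.21 ± 0.17. With the thymocyte marker mean as a covariate the fibroblast difference was +2.44 and lost its call (adjusted p = 0.0978). It was lower in Sirpa− DC (−2.76 ± 0.21) and Sirpa+ DC (−2.87 ± 0.21), with adjusted p of 2.24e-11 and 1.19e-11. A pair of further Tgfb2 probe sets called the same 4 populations, with +2.61 and +2.84 for mTEChi, and a dim last probe set kept the directions at smaller size (+0.42 for mTEChi).

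Tgfb3 was highest in mTEClo, followed by cTEC. The mTEClo arrays ran from 8.75 over a median of 9.23 to 10.04, the cTEC arrays from 7.35 over 8.37 to 8.81, and the mTEChi arrays from 6.40 over 6.94 to 7.26. The mTEClo and cTEC ranges overlapped by 1 cTEC array, the mTEChi range lay below both, and all 12 dendritic arrays lay between 4.47 and 5.51. Fibroblasts came next after cTEC, from 5.35 over 7.35 to 8.07, with a mean of 7.10 (7.45 without the library that stands apart) that did not differ from the mTEChi mean of 6.84 in a called way. Against the other 5 populations the difference was +2.81 ± 0.16 in mTEClo (7.0-fold, adjusted p = 6.03e-14) and +1.53 ± 0.16 in cTEC (2.89-fold, adjusted p = 5.03e-09). In Sirpa− DC and Sirpa+ DC it was −2.22 ± 0.16 and −2.21 ± 0.16. Between mTEClo and mTEChi, Tgfb3 and Tgfb2 differed in opposite directions: Tgfb3 was higher in mTEClo by 2.43 ± 0.20 and Tgfb2 lower by −1.70 ± 0.27 (adjusted p = 1.65e-10 and 8.72e-06), with no overlap of arrays for either.

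Bmp2 was highest in mTEChi. The 6 mTEChi arrays ran from 8.88 over a median of 9.37 to 9.62, and every one lay above all 30 other arrays, a separation that 6.8% of all genes showed for mTEChi. The fibroblast arrays came next, from 5.55 over 8.18 to 8.46, followed by mTEClo, from 6.22 over 6.98 to 8.17. Both dendritic populations lay between 4.70 and 5.41, below every cTEC array. The mTEChi difference was +3.04 ± 0.25 (8.20-fold, adjusted p = 5.67e-11), and Sirpa− DC and Sirpa+ DC were lower by −2.06 ± 0.25 and −1.77 ± 0.25. In fibroblasts the difference was +0.94 and was not called with all arrays, but was +1.36 ± 0.21 (2.56-fold) and called without the library that stands apart, and +1.22 and called without the fibroblast 3 months replicate 2.

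Bmp4 was highest in fibroblasts and second in cTEC, the epithelium being a known target of BMP4. Fibroblast arrays ran from 6.03 over a median of 7.60 to 9.27 and cTEC arrays from 5.89 over 6.37 to 7.10. All 24 arrays of the other 4 populations lay between 4.17 and 5.10, below both. The difference was +2.54 ± 0.16 in fibroblasts (5.82-fold, adjusted p = 8.33e-13), or +2.84 ± 0.13 without the library that stands apart. In cTEC it was +1.10 ± 0.16 (2.14-fold, adjusted p = 2.28e-06), just past 2-fold, and without the cTEC 6 months replicate 1 it fell just short, at +1.00. In mTEChi it was −1.27 ± 0.16 (adjusted p = 2.19e-07), and −0.79, short of 2-fold, when the fibroblast arrays were left out of the comparison. Within the epithelium, cTEC exceeded mTEClo by 1.57 ± 0.21 (adjusted p = 1.98e-06) with no overlap.

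Bmp7 followed the epithelium with small spread. The mTEClo arrays ran from 7.73 over a median of 7.78 to 8.03, every one above all 30 others, which 0.731% of all genes showed for mTEClo. The cTEC arrays, at 7.19 to 7.63, lay above the mTEChi arrays, at 6.53 to 6.99, and those above the fibroblast arrays, at 5.74 to 6.17. The order of these 4 populations therefore held in every array, and only fibroblasts and both dendritic populations overlapped. The differences from the other 5 populations were +1.49 ± 0.09 in mTEClo (2.82-fold, adjusted p = 2.72e-13), +1.05 ± 0.09 in cTEC (2.07-fold, adjusted p = 2.12e-10) and −1.09 ± 0.09 in Sirpa− DC (adjusted p = 8.2e-11). The cTEC difference was short of 2-fold under quantile normalization (+0.97), without the cTEC 3 months replicate 2 (+1.00) and without the fibroblast arrays (+0.94). Another Bmp7 probe set gave a wider contrast, +2.86 in mTEClo and +1.75 in cTEC against −2.24 and −2.22 in Sirpa− DC and Sirpa+ DC, and a dim last one gave +0.68 and +0.55.

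Inhba encodes the βA subunit of activin A and showed the least contrast of the 7 ligands. Fibroblast arrays ran from 5.95 over a median of 7.65 to 8.09, and the 30 other arrays lay between 5.51 and 6.74. The lowest fibroblast value was the library that stands apart, and the other 5 fibroblast arrays, at 7.33 to 8.09, exceeded every other array. The fibroblast difference was +1.32 ± 0.15 (2.50-fold, adjusted p = 4.26e-08), or +1.58 ± 0.13 without that library, and with the thymocyte marker mean as a covariate it was +1.06 and was no longer called (adjusted p = 0.366). Neighbouring populations among the other 5 differed by at most 0.19 and none was called. The second Inhba probe set was above the median of all values in 0 of 36 arrays and showed no fibroblast excess (−0.11).

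Fst, the activin antagonist, had the largest contrast of the 10 genes. Its mTEClo arrays ran from 10.24 over a median of 11.27 to 11.93 and its cTEC arrays from 8.63 over 11.28 to 11.61. All 24 arrays of the other populations were lower: mTEChi at 5.44 to 8.15, fibroblasts at 5.29 to 6.92, and both dendritic populations at 4.56 to 5.01. The difference was +4.44 ± 0.20 in mTEClo (21.7-fold, adjusted p = 7.79e-16) and +4.07 ± 0.20 in cTEC (16.8-fold, adjusted p = 3.65e-15), and these populations did not differ from each other beyond their spread (cTEC minus mTEClo −0.31, 95% interval −0.84 to 0.22). Directly compared, mTEClo exceeded mTEChi by 4.24 ± 0.25 (adjusted p = 3.37e-13). Fst was lower in Sirpa− DC (−3.44 ± 0.20), Sirpa+ DC (−3.16 ± 0.20) and fibroblasts (−1.27 ± 0.20), or −1.10 without the library that stands apart, and the last was not called with the thymocyte marker mean as a covariate (−0.62, adjusted p = 0.724). A second Fst probe set called the same 5 populations in the same directions, with +3.45 in mTEClo and +3.35 in cTEC.

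Grem1, the secreted BMP antagonist, was above the median of all values in 6 arrays, all of them mTEChi. These ran from 6.24 over a median of 7.0 to 8.44, while the 30 other arrays lay between 4.55 and 5.58. The mTEChi difference was +2.18 ± 0.08 (4.54-fold, adjusted p = 3.9e-18), a comparison that the filter had partly fixed. The next population, mTEClo, was lower by 1.94 ± 0.10, and no neighbours among the other 5 populations differed in a called way. Fst, in contrast, was above the median of all values in 22 arrays, among them every mTEClo and cTEC array and 5 of the 6 mTEChi arrays.

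Ltbp1, which ties latent TGF-β to the matrix, was a fibroblast transcript. In 5 fibroblast arrays it stood between 9.08 and 10.26, and in the library that stands apart at 6.10. The 18 epithelial arrays lay between 5.11 and 6.12, Sirpa− DC at 4.31 to 4.94 and Sirpa+ DC at 3.72 to 4.16, below every other array, a separation that 0.276% of all genes showed for Sirpa+ DC. The fibroblast difference was +4.06 ± 0.28 (16.7-fold, adjusted p = 3.81e-12), and +4.72 ± 0.13 (26.4-fold) without that library. Sirpa− DC and Sirpa+ DC were lower, by −1.39 ± 0.28 and −2.16 ± 0.28 (adjusted p = 0.000128 and 3.2e-07). The other Ltbp1 probe sets were called for fibroblasts only (+1.07 and +2.52), and neither called a dendritic decrease. In them the Sirpa+ DC mean was 4.67 and 3.28, against 4.43 to 4.61 and 3.24 to 3.34 in the epithelial populations. Without the fibroblast arrays the Sirpa− DC difference was −0.60, short of 2-fold.

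**Figure D2:**
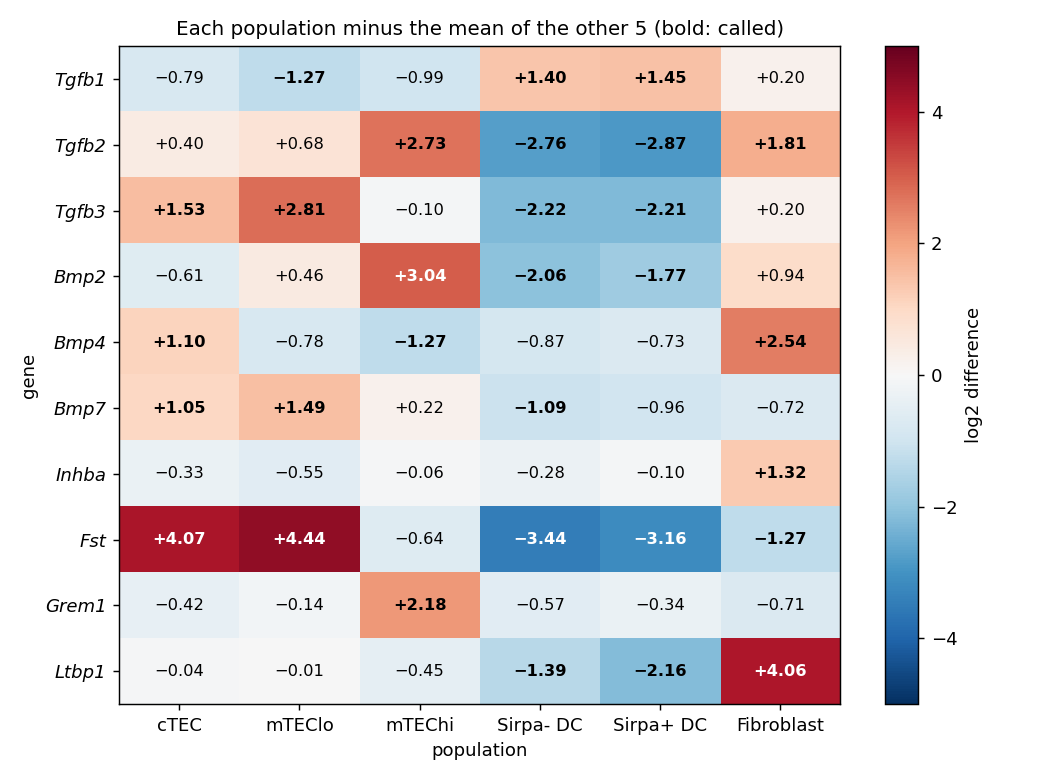
Difference in log2 signal between each population (columns) and the mean of the other 5 for each gene (rows), by colour and printed value, with called differences in bold. Fst spans +4.44 in mTEClo to −3.44 in Sirpa− DC, and Ltbp1 is called higher in fibroblasts alone.

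Between pairs of populations, 92 of 150 tests on the 10 genes were called, against 22.1% of the tests over all genes. Sirpa− DC and Sirpa+ DC had 0 called differences among the 10 genes, where 5.37% of all genes were called. The widest of those 10 differences was that of Ltbp1, whose arrays did not overlap, at 0.64 higher in Sirpa− DC with a 95% interval of −0.12 to 1.40, and those of Tgfb1 and Tgfb3 lay within −0.43 and 0.41. In limma's test 0 of the 10 had an adjusted p under 0.05, and 0 had an unadjusted p under 0.05 (the lowest was 0.0703, for Grem1). The Ltbp1 interval uses a spread pooled over all 18 groups, among them fibroblasts at 6 months (SD 2.82, with the library that stands apart). Over the dendritic arrays the Ltbp1 SD was 0.28 in Sirpa− DC and 0.16 in Sirpa+ DC, so the missing call does not show equal Ltbp1 levels. The cTEC and mTEClo arrays had 2 called differences, Bmp4 higher in cTEC and Tgfb3 higher in mTEClo (8.01% of all genes), whereas mTEClo and mTEChi had 6 (19.6% of all genes): Tgfb3, Bmp7 and Fst were higher in mTEClo, and Tgfb2, Bmp2 and Grem1 in mTEChi. These pair counts carry the same limits: genes chosen with earlier results known, and Grem1 passing the filter only through mTEChi.

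With age, 16 of the 180 tests within populations were called at an adjusted p under 0.05 (5 higher, 11 lower at the older age), against 6.74% of the tests over all genes. Of these, 9 concerned fibroblasts, 4 mTEChi, 2 cTEC and 1 mTEClo, and none a dendritic population. Each rests on 4 arrays, while all 18 groups supply the estimate of the spread. When only the 4 arrays compared were fitted, 0 of the 16 were called, and 4 others were: Bmp2 in mTEClo at 3 and 6 months against 1 month (−1.75 and −1.23) and Fst in mTEClo at the same ages (+1.55 and +0.90). Leaving out a single array gave 12 to 28 calls, and the highest count came without the fibroblast 6 months replicate 1, which leaves the library that stands apart alone in its group.

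In fibroblasts, 6 of the 10 genes were lower at 6 months than at 1 month and none was higher, where 36.2% of all genes were called, 20.4% of all genes as lower. Tgfb2 stood at 9.16 and 9.15 at 1 month, 8.56 and 7.35 at 3 months, and 7.42 and 5.05 at 6 months. Both older ages lay below 1 month, 3 and 6 months overlapped, and the lowest value belonged to the library that stands apart. The change from 1 to 6 months was −2.92 ± 0.47 (adjusted p = 6.23e-05), and −1.74 ± 0.41 (adjusted p = 0.00600) without that library. All 3 other Tgfb2 probe sets were also called lower, at −2.24, −1.98 and −0.80. Tgfb3 stood at 8.07 and 7.77 at 1 month, 7.55 and 7.15 at 3 months, and 6.70 and 5.35 at 6 months, with no overlap between ages. Its change was −1.90 ± 0.35 (adjusted p = 0.000206), and −1.22 ± 0.36 (adjusted p = 0.0229) without the library. From 3 to 6 months Tgfb2 fell by 1.72 (adjusted p = 0.0149) and Tgfb3 by 1.33 (adjusted p = 0.0104), where 16.2% of all genes were called. Without the library these were −0.53 (adjusted p = 0.548) and −0.65 (adjusted p = 0.356), and without the 3 months replicate 1 they were −1.11 and −1.13 and were not called either.

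The other 4 calls from 1 to 6 months were lost without that library. Bmp4, at 9.27 and 8.10 at 1 month, was 7.38 and 6.82 at 3 months and 7.82 and 6.03 at 6 months. Its change from 1 to 6 months was −1.76 ± 0.36 (adjusted p = 0.000624), or −0.87 (adjusted p = 0.0681) without the library. Its change from 1 to 3 months, −1.58 ± 0.36 (adjusted p = 0.00304, where 20.4% of all genes were called), does not involve that library but lost its call without the 1 month replicate 1 (−1.0, adjusted p = 0.141) or the 3 months replicate 2 (−1.30, adjusted p = 0.0745). Inhba changed by −1.20 ± 0.34 (adjusted p = 0.00832) and by −0.41 (adjusted p = 0.422) without it, and its call was also lost without the 1 month replicate 1 (adjusted p = 0.0975). Bmp2 changed by −1.57 ± 0.55 (adjusted p = 0.0286) and by −0.30 (adjusted p = 0.74) without it. Ltbp1 changed by −1.66 ± 0.63 (adjusted p = 0.0412), but stood at 9.60 and 9.90 at 1 month against 10.08 and 6.10 at 6 months, and without the library it turned to +0.33 (adjusted p = 0.54). The calls of Bmp2 and Ltbp1 were also lost without either 1 month array (adjusted p = 0.0942 to 0.137). The further Ltbp1 probe sets were called lower at both 3 and 6 months, by −1.27 and −1.17 in the first and −1.95 and −2.30 in the other.

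**Figure D3:**
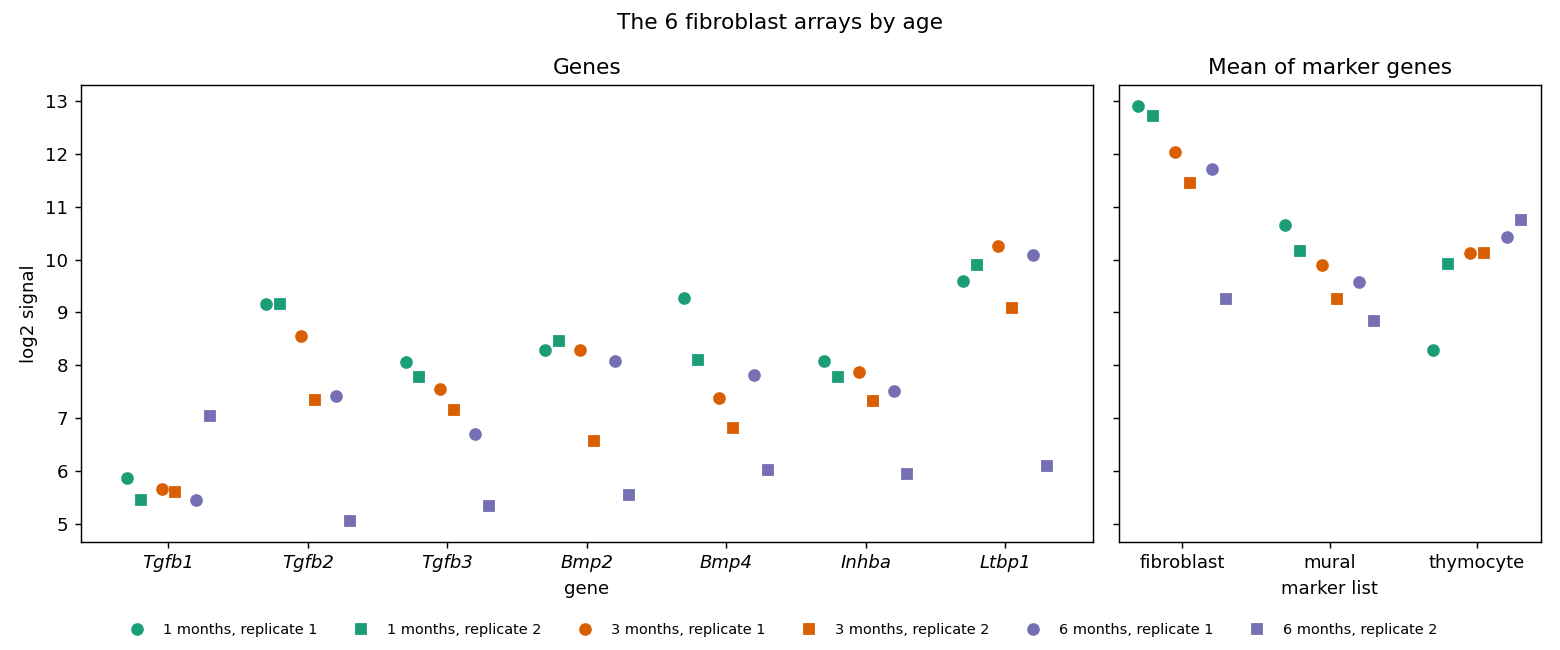
Log2 signal (vertical axis) in the 6 fibroblast arrays for 7 of the genes (left) and for the mean of the fibroblast, mural and thymocyte marker lists (right); colours give the age, circles replicate 1 and squares replicate 2. The replicate 2 array at 6 months is the lowest for Tgfb2, Tgfb3, Bmp2, Bmp4, Inhba and Ltbp1 and the highest for Tgfb1 (7.04), and the fibroblast markers decline from 12.91 to 9.26 while the thymocyte markers rise from 8.28 to 10.74.

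The composition markers moved with these changes. The fibroblast marker mean was 12.91 and 12.72 at 1 month, 12.04 and 11.45 at 3 months, and 11.71 and 9.26 at 6 months. The thymocyte marker mean was 8.28 and 9.91, then 10.12 and 10.13, then 10.43 and 10.74, and the mural marker mean was 10.65 and 10.16, then 9.90 and 9.25, then 9.58 and 8.83. The 3′ minus 5′ signal of the Gapdh and Actb controls, which grows as RNA is degraded or shortened in amplification, was 3.15 and 2.37, then 2.28 and 1.94, then 1.86 and 1.72. With the thymocyte marker mean as a covariate, 10 of the 16 age calls were kept, counted over all populations and not in fibroblasts alone. Of the 5 changes from 1 to 6 months called against the mean change of the other 5 populations, 2 were kept. The 3 lost were those of fibroblasts (Tgfb2, Tgfb3 and Bmp4). The part of the marker and 3′ minus 5′ shifts in the changes of the genes was not tested further. Without the library that stands apart, 14.8% of all genes were called between 1 and 6 months in fibroblasts, and 2 of the 10 genes.

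In mTEChi, Grem1 was higher at 6 months than at either younger age. It stood at 7.01 and 7.0 at 1 month, 6.24 and 6.30 at 3 months, and 7.82 and 8.44 at 6 months, so that the ages did not overlap. It rose from 1 to 6 months by 1.13 ± 0.17 (2.18-fold, adjusted p = 0.000287) and from 3 to 6 months by 1.86 ± 0.17 (3.63-fold, adjusted p = 4.94e-07), where 9.51% and 7.87% of all genes were called. The mTEChi marker mean was 10.04 and 9.83 at 1 month, 10.01 and 9.91 at 3 months, and 10.51 and 10.98 at 6 months, and its part in the rise was not tested. The mTEChi arrays at 6 months were the least alike replicate pair of the series (r = 0.949). Replicate 1 of that pair correlated best with a 3 months mTEChi array. Every mTEChi age call among the 10 genes uses that pair. In mTEClo, Grem1 fell from 1 to 3 months by 0.76 ± 0.17 (adjusted p = 0.0175, where 1.77% of all genes were called), with all 4 arrays below the median of all values, and that call was lost on leaving out any of those 4 arrays (adjusted p = 0.0549 to 0.215).

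Fst in mTEChi stood at 7.05 and 6.78 at 1 month, 7.57 and 8.15 at 3 months, and 6.68 and 5.44 at 6 months. It fell from 3 to 6 months by 1.80 ± 0.44 (adjusted p = 0.0138), a call lost without the 3 months replicate 2 (−1.51, adjusted p = 0.15) or the 6 months replicate 2 (−1.18, adjusted p = 0.23), and the second Fst probe set gave −0.64 and was not called. Tgfb1 in mTEChi stood at 4.54 and 4.41 at 3 months against 5.40 and 5.53 at 6 months, a rise of 0.99 ± 0.29 (adjusted p = 0.0393) that remained below the median of all values. The second Tgfb1 probe set gave −0.25 for the same comparison, and leaving out the 3 months replicate 1, the 3 months replicate 2 or the 6 months replicate 2 ended the call (adjusted p = 0.127 to 0.202).

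In cTEC, Fst stood at 8.63 and 10.88 at 1 month, 11.07 and 11.59 at 3 months, and 11.61 and 11.49 at 6 months. The rise from 1 month was 1.58 ± 0.44 at 3 months (adjusted p = 0.0340) and 1.80 ± 0.44 at 6 months (adjusted p = 0.0131), where 5.4% and 6.45% of all genes were called. It rests on the 1 month replicate 1: without that array the changes were +0.45 and +0.67, with adjusted p of 0.775 and 0.494. Leaving out either older array of a comparison kept the size (+1.32 to +1.85) but ended the call (adjusted p = 0.0651 to 0.2). The 3′ minus 5′ signal was 2.63 and 2.43 in the 1 month cTEC arrays against 1.94 to 2.04 in the older ones, and with it as a covariate the change to 3 months was +1.47 and not called (adjusted p = 0.115). The second Fst probe set, read on the same arrays, gave +1.71 and +1.76. In mTEClo the Fst arrays were 10.49 and 10.24 at 1 month, 11.90 and 11.93 at 3 months, and 11.28 and 11.26 at 6 months, a change of +1.55 and +0.90 that was not called with all groups in the fit.

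**Figure D4:**
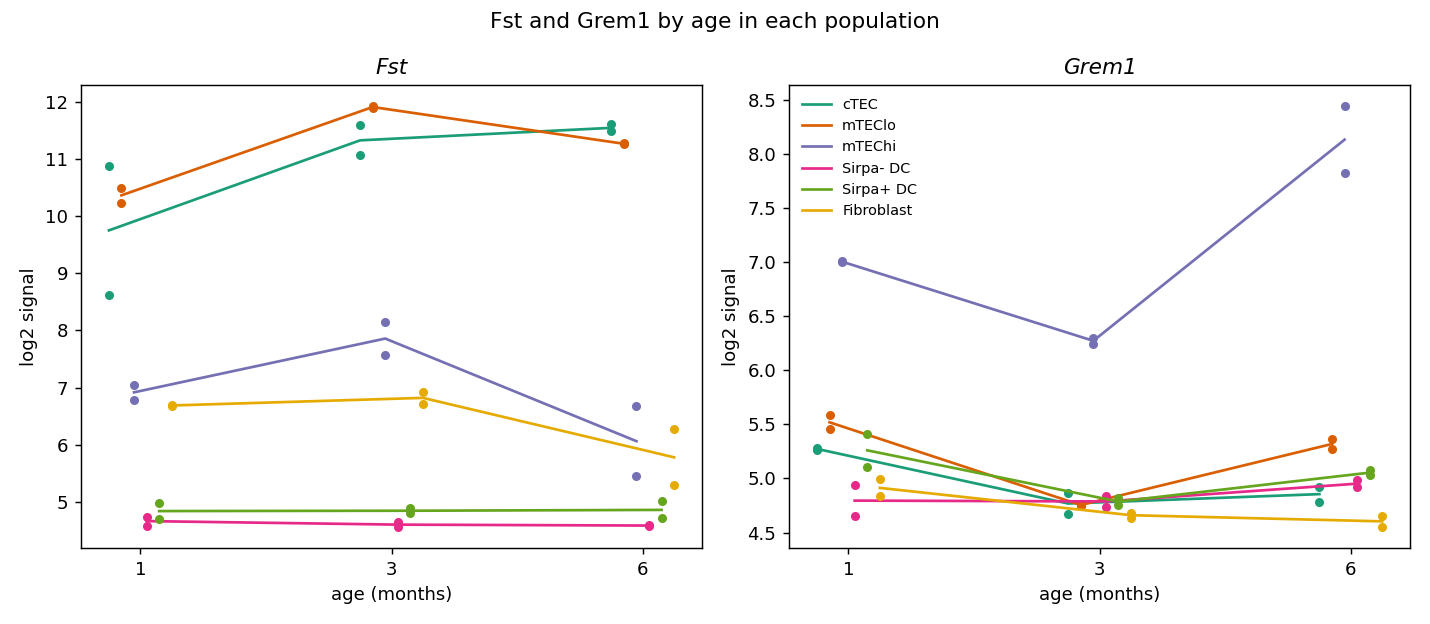
Log2 signal (vertical axis) of Fst and Grem1 at 1, 3 and 6 months (horizontal axis, evenly spaced) in each population; points are single arrays and lines join the means of 2. Fst at 1 month in cTEC splits into 8.63 and 10.88, and Grem1 in mTEChi reaches 7.82 and 8.44 at 6 months while the other populations stay at or below 5.58.

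The change with age differed between populations for 3 of the 10 genes in an F-test over the 10 interaction contrasts: Grem1 (adjusted p = 0.00018), Fst (adjusted p = 0.0247) and Tgfb2 (adjusted p = 0.0430), where 15.7% of all genes passed. Tgfb2 lost this call under 33 of the alternatives run and kept it under 17, and most of the losses came from leaving out single arrays. Fst lost it under 3 of the alternatives, among them without the fibroblast 1 month replicate 1 and without the cTEC 6 months replicate 1. The count was 1 without the fibroblast 1 month replicate 1 and 9 without the fibroblast 6 months replicate 1. Comparing the change from 1 to 6 months in a population with the mean change in the other 5, Grem1 differed in mTEChi (+1.32 ± 0.19, adjusted p = 0.000694) and Fst in cTEC (+1.98 ± 0.48, adjusted p = 0.0241), where 3.43% and 2.3% of all genes were called. In fibroblasts, where 26.4% of all genes were called, Tgfb2 (−2.82 ± 0.52), Tgfb3 (−1.70 ± 0.38) and Bmp4 (−1.77 ± 0.40) differed. Without the library that stands apart, Tgfb2 was still called (−1.63, adjusted p = 0.0208), and Tgfb3 (−1.02, adjusted p = 0.0998) and Bmp4 (−0.87, adjusted p = 0.119) did not pass. With the thymocyte marker mean as a covariate all 3 fibroblast calls were lost, Tgfb2 at −2.44 (adjusted p = 0.0909), Tgfb3 at −1.24 (adjusted p = 0.243) and Bmp4 at −1.05 (adjusted p = 0.349). Bmp4 also failed without the fibroblast 1 month replicate 1 (−1.18, adjusted p = 0.0866). The cTEC difference of Fst was 0.85 (adjusted p = 0.674) without the cTEC 1 month replicate 1, and was not called without either 6 months array of cTEC (adjusted p = 0.0826 and 0.135).

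In the mean of the 6 populations, 9 of 30 tests on the 10 genes were called (3 higher, 6 lower at the older age), against 24.8% over all genes (6.34% from 1 to 3 months, 36.6% from 1 to 6 and 31.5% from 3 to 6). Tgfb3 was lower at 6 months than at 1 month (−0.48 ± 0.14, adjusted p = 0.00994) and at 3 months (−0.67 ± 0.14, adjusted p = 0.00101). Grem1 fell from 1 to 3 months by 0.46 ± 0.07 (adjusted p = 0.000749) and rose from 3 to 6 months by 0.48 ± 0.07 (adjusted p = 1.93e-05), and Fst rose by 0.69 ± 0.18 (adjusted p = 0.0236) and fell by 0.54 ± 0.18 (adjusted p = 0.0226) over the same steps. From 1 to 6 months Tgfb1 rose by 0.35 ± 0.12 (adjusted p = 0.0262) and Tgfb2 and Inhba fell by 0.57 ± 0.19 and 0.41 ± 0.14 (adjusted p = 0.0229 and 0.0252). Without the library that stands apart the changes of Tgfb1 and Tgfb2 were +0.22 and −0.37 (adjusted p = 0.045 and 0.043). None reached 2-fold, the second Tgfb1 probe set gave −0.14, and Inhba was not called without the library that stands apart (−0.28, adjusted p = 0.0579). With the replicate number as a random block, 4 of the 9 were kept. The calls of Tgfb3 and Grem1 held without any single array. Tgfb1 was not called without the fibroblast 1 month replicate 2, the Sirpa+ DC 6 months replicate 2 or the mTEClo 6 months replicate 1, nor Tgfb2 without the cTEC 1 month replicate 2. Fst was not called at one or the other step without replicate 2 of the fibroblast, cTEC or mTEChi arrays at 3 months, or of the fibroblast or mTEChi arrays at 6 months. Inhba was also lost without any of 6 other arrays, with adjusted p of 0.0511 to 0.0575. Without the fibroblast 6 months replicate 1, 16 of the 30 tests were called.

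The rest of the pathway was read from lists of other ligands, antagonists, receptors, Smads, latency genes and targets. Of all genes, 16.1% were called in cTEC, 14.8% in mTEClo, 19.2% in mTEChi, 19.2% in Sirpa− DC, 16.9% in Sirpa+ DC and 18.4% in fibroblasts, and the list counts that follow stand beside these shares. Among 12 receptors tested, 5 were higher and 1 lower in cTEC, 5 and 1 in mTEClo, 0 and 3 in mTEChi, 1 and 3 in Sirpa− DC, 2 and 2 in Sirpa+ DC, and 3 and 0 in fibroblasts. In mTEChi, where Tgfb2 and Bmp2 peaked, the type II TGF-β receptor Tgfbr2 was lower than in every other array (−3.10 ± 0.13) and the type I receptor Tgfbr1 was lower (−1.24). The co-receptor Tgfbr3 was higher in cTEC (+3.07) and fibroblasts (+2.18), the BMP receptor Bmpr1b in mTEClo (+2.05, with no overlap), and Acvrl1 in Sirpa− DC (+2.73) and Sirpa+ DC (+1.54). The median receptor difference was −0.50 in mTEChi and +0.66 in mTEClo, against −0.07 and −0.02 over all genes.

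Of 12 other ligands tested, 5 were higher and 0 lower in mTEChi, among them the activin subunit Inhbb (+2.55), the Nodal antagonist Lefty2 (+2.86, above every other array) and Gdf10 (+1.41). Without the library that stands apart, the list counts for fibroblasts changed only among the Smads, to 2 higher and 1 lower. In fibroblasts 2 ligands were higher, Bmp5 (+2.39) and Gdf10 (+2.27), and 1 lower, Bmp6 (−1.26). Of 10 other antagonists, the follistatin-like Fstl1 was higher in cTEC (+2.91), mTEClo (+3.04) and fibroblasts (+2.95) and lower in both dendritic populations (−4.87 in each). The BMP antagonist Sostdc1 was higher in mTEClo (+2.40) and mTEChi (+1.49).

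Of 10 latency and activation genes, 4 were higher and 1 lower in mTEClo, and 6 were lower and 1 higher in Sirpa− DC. The TGF-β-releasing integrin Itgb8 was higher in mTEChi (+3.72, above every other array) and mTEClo (+1.91). Nrros, which holds latent TGF-β on myeloid cells, was higher in Sirpa− DC (+2.32) and Sirpa+ DC (+2.74), where Tgfb1 was high, Ltbp1 was low in its chosen probe set only, and the macrophage markers were also highest. Ltbp3 was higher in cTEC (+2.81) and mTEClo (+2.53), and Ltbp4 in fibroblasts (+1.93), as was Ltbp1.

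Of 10 target genes, 5 were higher and 0 lower in mTEClo, and 0 higher and 3 lower in mTEChi, with medians of +1.00 and −0.64 against −0.02 and −0.07 over all genes. The BMP targets Id1 and Id3 were higher in mTEClo (+2.64 and +2.61) and cTEC (+1.87 and +2.23), and Id3 in fibroblasts (+2.21). The TGF-β target Ccn2 was higher in fibroblasts (+3.95) and mTEClo (+2.77). In fibroblasts the targets went both ways. Without the library that stands apart, Id3 was at +2.40 and Ccn2 at +4.31, but Tgfbi at −1.92 and Id2 at −1.76. The median over the 10 targets was −0.53 in that fit, against −0.04 over all genes. Of 7 Smads, 3 were higher in mTEClo, Smad1 (+1.17), Smad5 (+1.25) and the inhibitory Smad6 (+1.62), and in mTEChi Smad1 was higher (+1.20) and the inhibitory Smad7 lower (−1.03).

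With age in fibroblasts, 9 of 12 receptors, 6 of 10 latency genes and 5 of 10 antagonists were lower at 6 months than at 1 month, among them Fbn2 (−2.97), Bmp1 (−2.73), Acvr1 (−2.50) and Fstl1 (−2.27), where 20.4% of all genes were called lower. Without the library that stands apart these counts were 4, 3 and 3, where 14.8% of all genes were called in either direction, and the 4 changes were −2.88, −2.19, −1.11 and −1.09. In cTEC, where 6.45% of all genes were called, 4 of 10 target genes rose, among them Id2 (+1.38), Id1 (+1.21) and Msx1 (+1.13), and 1 fell, Tgif1 (−1.09). These cTEC changes were not refitted without the 1 month replicate 1, the array on which the cTEC rise of Fst rested. The 3′ minus 5′ signal was 2.63 and 2.43 in the 1 month cTEC arrays, against 1.94 to 2.04 in the older ones. In mTEChi the integrin Itgb6 rose (+1.07, adjusted p = 0.00163) and Bmp5 (−1.31), Id1 (−1.27) and Tgif1 (−1.14) fell from 1 to 6 months.

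Across the 18 group means, which share arrays and normalization between genes, Fst tracked Bmp7 (r = 0.94) and Tgfb3 (r = 0.93), Tgfb2 tracked Bmp2 (r = 0.92), and Ltbp1 tracked Bmp4 (r = 0.82) and Inhba (r = 0.79). Over all genes tested, the profiles most like each member were BC035044, Gpr65 and Cd48 for Tgfb1 (r = 0.96 to 0.97), Dixdc1, P4ha2 and Myh11 for Tgfb2 (0.95 to 0.97), Pcdhb20, Fzd2 and Myo1d for Tgfb3 (0.97 to 0.99) and Larp6, Bex1 and Sncg for Bmp2 (0.95 to 0.96). For Bmp4 they were Bicc1, Il34 and Medag (0.96), for Bmp7 Arhgef5, Fgfr2 and Ntf5 (0.98), for Inhba Sod3, Col6a3 and Ildr2 (0.95 to 0.96) and for Fst Nrbp2, Dll1 and Vsnl1 (0.97). Grem1 was closest to Gm11716, Scgb1a1 and Apoa4 (0.96), and Ltbp1 to the matrix proteoglycan genes Lum and Bgn and to Dio2 (0.96). These are likenesses of level over groups and carry no test.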

How the data were processed

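The 36 arrays were deposited as log2 values per probe set, made by the authors with GCRMA per the submitters' processing notes (version not given in the sources used here) and normalized in Gene Expression Commons per the labels' design text. Background correction dominates dim probe sets, so differences among values below the median of 5.66 are uncertain. Of 45101 probe sets, 34945 carried 1 symbol, 932 several and 9160 none, and 64 were controls. Per gene the probe set with the highest mean was kept (18193 genes), and the 14495 that exceeded 5.66 on 2 or more arrays were tested.

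A model of 18 group means (18 residual degrees of freedom) was fitted with limma 3.58.1 in R 4.3.3, using moderated variances with an intensity trend and Benjamini-Hochberg adjustment over genes within each comparison. It was tested on simulated data. Populations were called at an adjusted p under 0.05 and at least 2-fold, ages at the adjusted p alone. Errors are SEs from the fit. Replicate numbers were not used as pairs, since not every correlation exceeded 0.1, though shared animals are possible: over 45 pairs of same-numbered arrays of an age, residuals correlated at −0.068 to 0.418, with 17 over 0.1. No arrays were identical.

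The members, pathway lists and markers were chosen with earlier results of these data known. All members are described. From each list at most 4 called genes with the largest difference were named per comparison, together with up to 3 that were not called, and the 3 genes most correlated with each member. List genes with no probe set of a single symbol, such as Bmp3 and Fbn1, were not analysed here. Alternatives covered normalization, probe set choice, filters, variance model, covariates, blocks, thresholds and leaving out each array. Scanner intensities were not used.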

Additional observations from a re-analysis of the deposited data

Results flagged for a closer look

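In 6 of the 60 combinations of gene and population, 1 of the 6 arrays lay far from the others. The cutoff would flag about 1 in 20 for independent values from 1 normal distribution. That rate does not apply here, since the 6 arrays span 3 ages and the combinations share arrays. Of these, 3 were the fibroblast 6 months replicate 2: Tgfb1 at 7.04 (the others at 5.45 to 5.87), Inhba at 5.95 (7.33 to 8.09) and Ltbp1 at 6.10 (9.08 to 10.26). Another 2 were the cTEC 1 month replicate 1: Fst at 8.63 (10.88 to 11.61) and Tgfb2 at 5.65 (6.51 to 7.01). The last was Bmp7 in the mTEClo 3 months replicate 1, at 8.03 (7.73 to 7.82).

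The change with age differed between populations in limma's F-test for Grem1 (adjusted p = 0.00018), Fst (adjusted p = 0.0247) and Tgfb2 (adjusted p = 0.043). Against the mean change of the other 5 populations, the change from 1 to 6 months was +1.32 for Grem1 in mTEChi and +1.98 for Fst in cTEC. In fibroblasts it was −2.82 for Tgfb2, −1.70 for Tgfb3 and −1.77 for Bmp4.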

How the results depend on the processing

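Of the 30 calls of a population against the other 5, all 30 were kept with the replicate number as a fixed or random block, 29 under quantile normalization, 27 with the thymocyte marker mean as a covariate and 24 with the mean of all probe sets. Without a fold threshold there were 47. Leaving out single arrays gave totals of 29 to 31 such calls, and of 89 to 94 between pairs of populations, where 92 were reported and 92 found with either block. Age calls were less stable. The 16 within populations stayed at 16 with the random replicate block, became 10 with the thymocyte covariate and 4 with only the groups compared, and ranged from 12 to 28 without single arrays. The 9 in the mean of the populations became 4 with the 3′ minus 5′ covariate, 4 with the random replicate block and 0 at 2-fold, and ranged from 7 to 16. The 3 of the F-test became 1 with the thymocyte covariate and 4 with either replicate block, and ranged from 1 to 9. A total of 4 differences reversed: Inhba in fibroblasts in its dim probe set (−0.11), Ltbp1 in fibroblasts from 1 to 6 months (+0.33 without the library that stands apart, and −3.65 without the other array of its group), and Tgfb1 in its second probe set, in mTEChi from 3 to 6 months (−0.25) and in the mean of the populations from 1 to 6 months (−0.14). The cause was not tested. Over all genes, the F-test's 2278 calls became 944 with the thymocyte covariate, 1237 without the fibroblast 1 month replicate 1 and 4070 without the mTEChi 6 months replicate 1. The mean age calls went from 10780 to 5525 with the 3′ minus 5′ covariate and 271 at 2-fold, and those within populations from 17584 to 8830 at 2-fold and 7329 with only the groups compared. Without a fold threshold the population calls went from 15148 to 54312 and the pairs from 48087 to 123482. The fixed block could not be fitted to ages, since replicates are nested in age, and the F-test and the comparison with the other 5 need all groups. With 2 arrays per group, and Grem1, Bmp4 and Tgfb1 near the array background in most populations, small changes in those could not be resolved.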
